A study of Mus musculus with 6 samples.

Results

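The 43 genes described here encode the machinery that copies DNA: the origin recognition complex and its loading factors, the Mcm helicase and its activators, the polymerases and primase, the sliding clamp and its loader, the proteins that finish the lagging strand, the enzymes that make deoxynucleotides, and the transcription factors E2f1 and E2f2. They were taken from a fixed list of gene names. Each needed a probe set annotated to that gene alone, and the brightest such probe set over all arrays stood for the gene. All 43 were found among the 18193 genes measured.

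The cells were common myeloid progenitors (CMP) from bone marrow of C57BL6 mice, stained with H2-DCFDA, a dye that becomes fluorescent when reactive oxygen species (ROS) oxidise it. Sorting by flow cytometry kept the cells of lowest and of highest staining, each 15% to 20% of all CMP. Both groups thus share strain, tissue, stain and sort, no treatment or allele is named for either, and the labels give no age. Each group has 3 arrays, and the series asks what ROS do as CMP become megakaryocyte-erythrocyte progenitors. Whether the replicates of a group are separate mice or sorts is not stated in the labels, and the p-values therefore rest on a spread between arrays that may be technical.

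Before a cell can replicate, Orc, Cdc6 and Cdt1 load the ring of Mcm2 to Mcm7 onto origins. Cdc45 and the GINS complex then join it to form the active helicase, and polymerases alpha, delta and epsilon build the new strands. Transcripts of most of these proteins are driven by E2F factors as cells pass from G1 into S phase, so in marrow progenitors they are commonly read as a mark of cycling. In sorted populations such as these, fewer cells in S phase and less of each transcript per cell cannot be told apart.

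No replication gene separated low-ROS from high-ROS CMP at the threshold. At an adjusted p under 0.05 (limma, Benjamini-Hochberg over all genes), 0 of 43 were higher and 0 were lower in high-ROS CMP, where 0.0165% and 0.0385% of all genes were called higher and lower, and the smallest adjusted p among the 43 was 0.513. At an unadjusted p under 0.05, 3 were higher (6.98%, against 4.44% of all genes) and 1 was lower (2.33%, against 3.37%). The 3 were Pold1, Prim2 and Pold2, which encode polymerase and primase subunits, and the 1 was E2f2. The signals of the groups did not overlap for 6 genes that were higher in high-ROS CMP, 14.0% against 8.04% of all genes, and for 1 that was lower, 2.33% against 5.32%.

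The differences were small. The mean was higher in high-ROS CMP for 30 of the 43 genes (69.8%) and lower for 13, while 54.0% of all genes had a higher mean. The median log2 fold change (high-ROS minus low-ROS, on the scale of log2 of the signal plus 16) was 0.07 for the 43 genes and 0.02 for all genes. All 43 lay above the median gene in brightness. Among the 9096 genes that bright, 53.4% had a higher mean, 9.95% did not overlap in the upward direction and the median was 0.02. The size of the log2 fold change stayed under 0.25 in 32 of 43. The 95% interval lay within a 2-fold change either way in 41 of 43 and within a 1.5-fold change in 29. The other two, Pold1 and Pole, had upper bounds just past a 2-fold change.

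**Figure D1:**
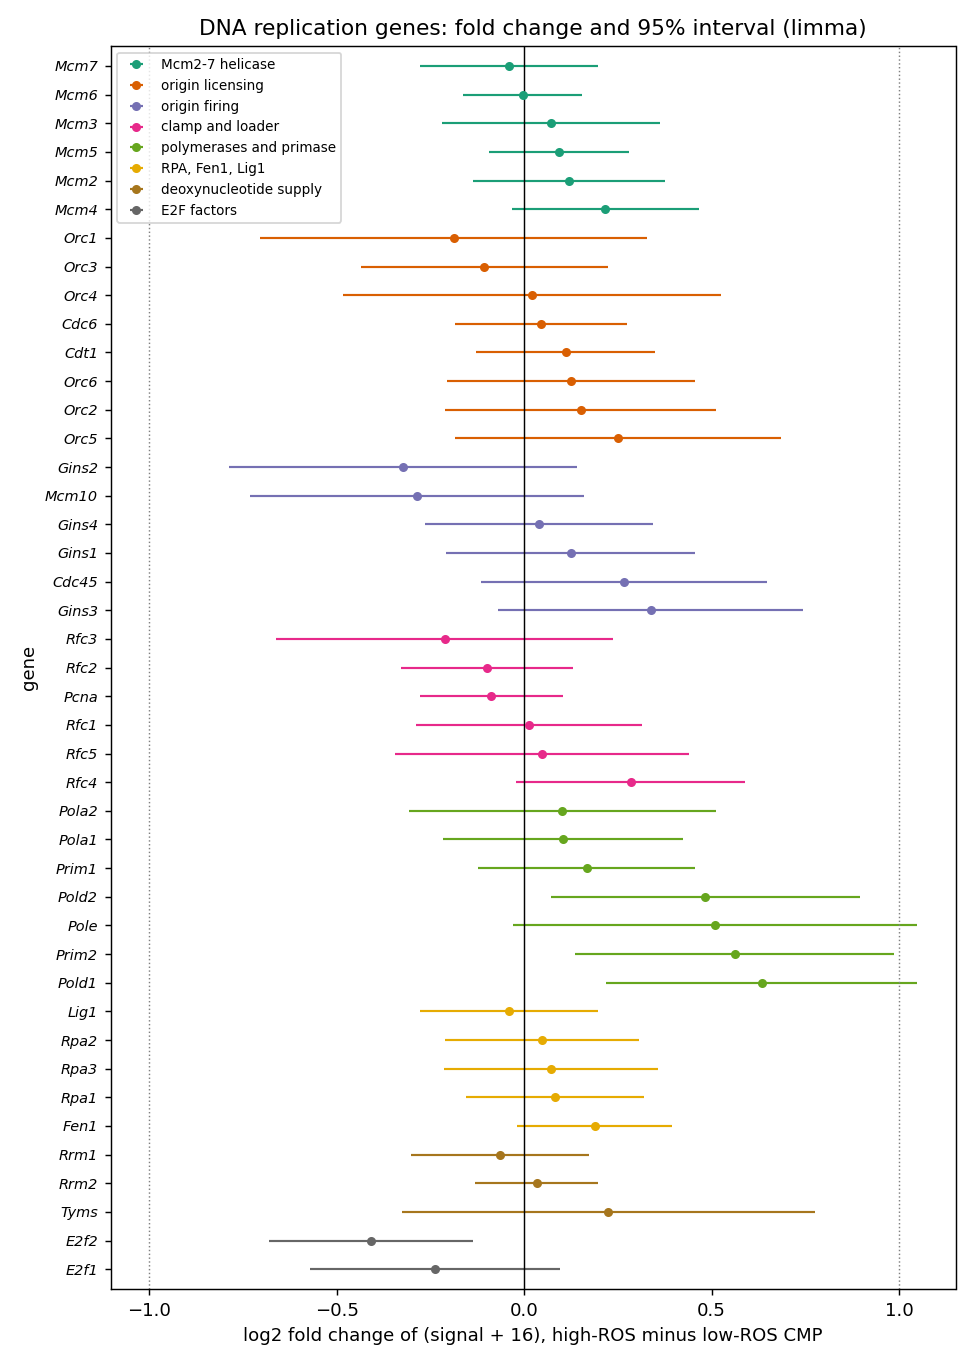
Log2 fold change of each of the 43 genes (x axis, high-ROS minus low-ROS, log2 of signal plus 16; point, with a line for its 95% interval from limma, 3 arrays per group), by role in colour; dotted lines mark a 2-fold change. Most intervals cross 0, those of Pold1, Prim2 and Pold2 lie above it and that of E2f2 below it, and none of the 43 passed the adjusted threshold.

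The arrays were close in overall scale, with median signals between 40.4 and 42.5 and correlations between arrays over all genes of 0.98 to 0.99. High-ROS replicate 3 was most often extreme, over all genes as well as these. It was the lowest of the 6 arrays for 17 of the 43 (39.5%, against 22.2% of all genes) and the highest for 11 (25.6%, against 23.8%). High-ROS replicates 1 and 2 were the lowest for 0 of the 43, against 11.6% and 12.6% of all genes. It also had the lowest trimmed mean signal, 179.8 against 187.8 to 197.2 on the others, and the highest ratio of 3′ to 5′ signal of the Gapdh control, a measure of RNA integrity and labelling, at 4.53 against 2.54 to 3.57. Without it, 35 of the 43 had a higher mean, the median was 0.12 and 0 passed the adjusted threshold (limma). In the upward direction 13 of the 43 (30.2%) then did not overlap, against 12.7% of all genes. Without low-ROS replicate 1, the lowest array for 13 genes, 11 of the 43 (25.6%) did not overlap upward, against 14.4% of all genes. Without high-ROS replicate 2, the highest array for 14 genes, 23 had a higher mean and the median was 0.04. Downward, 5 of the 43 (11.6%) then did not overlap, the same share as over all genes (11.6%). Of the 43, 4 had a lower mean with p under 0.05 before adjustment (limma), where 5.14% of all genes did in that fit. The part that RNA quality plays in these shifts was not tested.

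**Figure D2:**
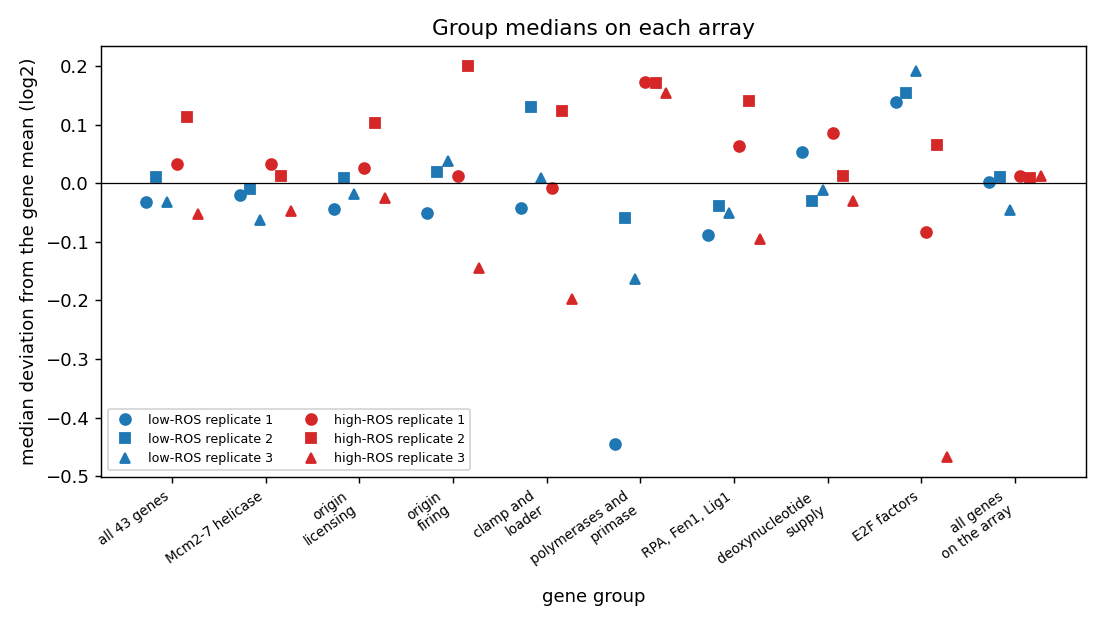
For each role (x axis), the median over its genes of the deviation from each gene's own mean over the 6 arrays (y axis, log2); blue marks are low-ROS and red marks high-ROS arrays, with a shape for each replicate. The 3 high-ROS arrays lie above the 3 low-ROS arrays for polymerases and primase and below them for the E2F factors, high-ROS replicate 3 is the lowest array for the clamp, origin firing, single-strand (RPA, Fen1, Lig1) and E2F groups, and the medians over all genes lie near 0.

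Of the transcription factors that drive the programme, both had lower means in high-ROS CMP. E2f2 (Entrez Gene 242705), an activating E2F with a known part in red cell maturation, gave signals of 2229, 2475 and 2280 on low-ROS replicates 1 to 3 and 1898, 1963 and 1434 on high-ROS replicates 1 to 3. Every high-ROS array was below every low-ROS array. The means were 2328 ± 130 (SD, n = 3) and 1765 ± 289 (SD, n = 3), a log2 fold change of -0.41 (SE 0.12), and the adjusted p of 0.525 (limma) did not pass. The value was -0.27 without high-ROS replicate 3. It was -0.19 when the log2 Gapdh ratio entered the fit as a covariate, an alternative added once the data had been seen. That ratio tended to be higher on the high-ROS arrays, so this covariate shares variation with the groups compared. The second probe set of E2f2 gave -0.08 (SE 0.11). E2f1 (Entrez Gene 13555), the other activating E2F listed, had 1160, 1065 and 1221 on the low-ROS and 998, 1188 and 770 on the high-ROS arrays. Here the groups overlapped, and the log2 fold change was -0.24 (SE 0.15, limma adjusted p = 0.729), or -0.07 without high-ROS replicate 3. With the Gapdh covariate its direction turned, to 0.06. The other probe sets of E2f1 had -0.32 (SE 0.16) and 0.09 (SE 0.20), the latter from dim signals of 17.3 to 29.3.

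E2F factors bind a short motif, and the promoters of the replication genes carry it more often than promoters at large. RefSeq promoter windows (GRCm38.p6, 250 bases before to 50 after the start) were found for 36 of the 43 genes, 45 windows in all. The letters TTTGGCGC, TTTCCCGC or TTTCGCGC, read on both strands, occurred in 31.1% of those windows and in 1.84% of all 32851 windows. The letters CCAAT, the core of the site of NF-Y, which often acts beside E2F, occurred in 60.0% and 37.4%. Neighbouring E2F matches can overlap, as they do in Mcm5 and Mcm6. The 4 stretches below show the motif in E2f2 itself and in Pold1, the members with the smallest p in each direction, and in Mcm5 and Mcm6, helicase genes whose signals hardly differed between the groups. They are written in the direction of the gene, with the E2F letters of either strand in capitals. They come from chr4:136172294-136172323 (plus strand), chr7:44548766-44548795 (minus), chr8:75109309-75109508 (plus) and chr1:128359706-128359905 (minus).
E2f2, bases 21 to 50 after the start: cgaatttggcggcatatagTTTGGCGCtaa
Pold1, bases 21 to 50 after the start: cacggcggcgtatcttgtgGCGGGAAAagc
Mcm5, the 200 bases before the start: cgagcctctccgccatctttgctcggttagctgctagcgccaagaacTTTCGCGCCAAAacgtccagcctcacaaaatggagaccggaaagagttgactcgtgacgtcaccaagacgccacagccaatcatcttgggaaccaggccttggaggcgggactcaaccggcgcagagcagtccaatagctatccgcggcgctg
Mcm6, the 200 bases before the start: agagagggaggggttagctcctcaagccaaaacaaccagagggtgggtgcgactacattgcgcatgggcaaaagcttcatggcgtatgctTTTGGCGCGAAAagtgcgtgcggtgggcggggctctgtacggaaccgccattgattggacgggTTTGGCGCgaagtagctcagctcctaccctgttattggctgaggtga

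The 14 genes with an E2F match were Cdc6, Cdt1, E2f2, Gins3, Lig1, Mcm3, Mcm5, Mcm6, Mcm7, Orc1, Orc3, Pola1, Pold1 and Rfc3. Of these, 7 had a higher and 7 a lower mean in high-ROS CMP. Their log2 fold changes ran from -0.41 to 0.63 around a median of 0.02. The 22 genes whose windows held no such letters had 18 higher and 4 lower means, with a median of 0.09. A match is a description of the letters, and the absence of one says nothing of the factor.

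By their brightest probe sets, all origin licensing genes overlapped between the groups. Orc1 to Orc6 encode the complex that marks origins, and their log2 fold changes ran from -0.19 for Orc1 to 0.25 for Orc5. Orc5 had 133, 134 and 149 on the low-ROS and 137, 164 and 210 on the high-ROS arrays, so that its highest value was again on high-ROS replicate 3 (SE 0.20, limma adjusted p = 0.780), and it was 0.10 without that array. Orc2, Orc6 and Orc4 had 0.15, 0.13 and 0.02, and Orc3 had -0.11. The other probe sets of Orc2 had 0.28 (SE 0.26) and 0.42 (SE 0.16), and on the latter the groups did not overlap. Cdc6, the ATPase that helps load the helicase, had 1312, 1455 and 1565 in low-ROS and 1559, 1464 and 1440 in high-ROS CMP (log2 fold change 0.05, SE 0.10, limma adjusted p = 0.948), turning to -0.02 without low-ROS replicate 1. Cdt1, the loading factor that is destroyed once S phase begins, had 1654, 1774 and 1644 in low-ROS and 2054, 1837 and 1614 in high-ROS CMP (0.11, SE 0.11, limma adjusted p = 0.836). For Cdt1, 2 of the 3 high-ROS arrays were above every low-ROS array and the third was below them all.

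The 6 genes of the helicase ring, Mcm2 to Mcm7, had log2 fold changes from -0.04 to 0.22, with a median of 0.08. Mcm6 had the largest p of all 43 genes, with 4628, 4447 and 4340 in low-ROS and 4500, 4536 and 4340 in high-ROS CMP. Its log2 fold change was -0.0039, with a 95% interval from -0.16 to 0.16 (limma adjusted p = 0.993), and its sign varied between settings. Mcm5 had 3046, 3056 and 2857 in low-ROS and 3057, 3087 and 3431 in high-ROS CMP. Its groups did not overlap, but they were parted by 1 unit of signal, between 3056 and 3057 (log2 fold change 0.09, SE 0.08, limma adjusted p = 0.818). Mcm2 had 1028, 991 and 981 against 1240, 1033 and 1005 (0.12, SE 0.12, limma adjusted p = 0.834), with the last of these inside the low-ROS range. The mean over its probe sets turned the direction of Mcm2, to -0.0077, as the Gapdh covariate did for Mcm5, to -0.0021. Mcm4 had the widest difference of the ring, with 2389, 2119 and 2207 against 2674, 2220 and 2965, a log2 fold change of 0.22 (SE 0.11, limma adjusted p = 0.672), and its groups overlapped. Leaving out high-ROS replicate 3 gave 0.12, leaving out high-ROS replicate 2 gave 0.33, and the Gapdh covariate gave 0.0011. Mcm3 had 0.07 and Mcm7 -0.04.

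The factors that turn the loaded ring into an active helicase went both ways. Gins3 had 112, 110 and 136 in low-ROS and 144, 153 and 166 in high-ROS CMP, with no overlap (log2 fold change 0.34, SE 0.18, limma adjusted p = 0.687). Its second probe set had -0.04 (SE 0.22), and the mean over both was 0.15. Gins2, a subunit of the same 4-part complex, had 448, 511 and 491 against 418, 511 and 261 (-0.32, SE 0.21, limma adjusted p = 0.738). The low value on high-ROS replicate 3 set that difference, which was -0.06 without it. The remaining subunits, Gins1 and Gins4, had 0.12 and 0.04. Mcm10, which helps start the helicase, had 423, 368 and 427 against 346, 435 and 237, the last again on high-ROS replicate 3 (-0.29, SE 0.20, limma adjusted p = 0.753), and -0.06 without that array. Cdc45, the GINS partner at the fork, had 339, 290 and 254 against 325, 321 and 428 (0.27, SE 0.17, limma adjusted p = 0.736), and 0.13 without high-ROS replicate 3, here the highest of the 6. With the Gapdh covariate all 3 turned in direction, to 0.14 for Gins2, 0.11 for Mcm10 and -0.03 for Cdc45.

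Among the polymerase and primase genes of the 43, all 7 had a higher mean in high-ROS CMP. For 3 of the 7 the groups did not overlap (42.9%, against 8.04% of all genes). The median log2 fold change of the 7 was 0.48, against 0.05 for the other 36 genes. None of the 7 passed the adjusted threshold (limma), and 3 (42.9%, against 4.44% of all genes) had an unadjusted p under 0.05. The group was singled out after its values were seen. Polymerase delta and epsilon subunits outside the 43 differed in sign, all with overlapping groups. Pold3 had 0.34, Pole4 0.10, Pole3 0.02, Pole2 -0.02 and Pold4 -0.09. Low-ROS replicate 1 was the lowest array for 5 of the 7, and without it the median was 0.25. The median also rested on the choice of probe set. For Prim2 and Prim1 the brightest probe set on the high-ROS arrays was not the brightest on the low-ROS arrays, and with each gene's brightest on the low-ROS arrays alone, an alternative added later, the median was 0.11.

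Pold1 (Entrez Gene 18971) encodes the catalytic subunit of polymerase delta, which copies the lagging strand and proofreads. It had 414, 749 and 498 on low-ROS replicates 1 to 3 and 845, 789 and 893 on high-ROS replicates 1 to 3. All high-ROS arrays were above all low-ROS arrays, and the low-ROS arrays were the more spread, with means of 554 ± 174 (SD, n = 3) and 843 ± 52.0 (SD, n = 3). The log2 fold change of 0.63 (SE 0.19) had an adjusted p of 0.513 (limma), ranged from 0.45 without low-ROS replicate 1 to 0.87 without low-ROS replicate 2, and was 0.40 (SE 0.18) on the second probe set of Pold1. Pold2 (Entrez Gene 18972), the accessory subunit of the same enzyme, had 95.3, 120.1 and 122.8 in low-ROS and 169, 168 and 152 in high-ROS CMP. Again the groups did not overlap (log2 fold change 0.48, SE 0.19, limma adjusted p = 0.587).

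Prim2 (Entrez Gene 19076), the large subunit of the primase that lays down RNA primers, had 230, 348 and 322 in low-ROS and 408, 387 and 553 in high-ROS CMP. The groups did not overlap, and the log2 fold change was 0.56 (SE 0.19, limma adjusted p = 0.568). Its other probe sets had 0.11 (SE 0.16) and 0.18 (SE 0.18), so the mean over its probe sets was 0.29. The one used was the brightest on the high-ROS arrays only, a choice that favours a higher value, and the one brightest on the low-ROS arrays gave the 0.11. Choosing probe sets on the low-ROS arrays favours lower values. With that choice, 2 of the 43 (4.65%, against 4.06% of all genes) were higher at p under 0.05 before adjustment (limma). Upward, 5 of the 43 (11.6%) did not overlap, where 8.04% of all genes did not under the main choice. Pole, the catalytic subunit of polymerase epsilon of the leading strand, had 137, 316 and 216 against 290, 307 and 327. Its groups overlapped through low-ROS replicate 2 (log2 fold change 0.51, SE 0.24, limma adjusted p = 0.645), and the value was 0.22 without low-ROS replicate 1. Prim1, the catalytic primase subunit, had 617, 795 and 730 against 810, 851 and 742 (0.17, SE 0.13, limma adjusted p = 0.780), and 0.07 without low-ROS replicate 1. Pola1 and Pola2, of polymerase alpha, had 0.10 and 0.10 with overlapping groups.

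**Figure D3:**
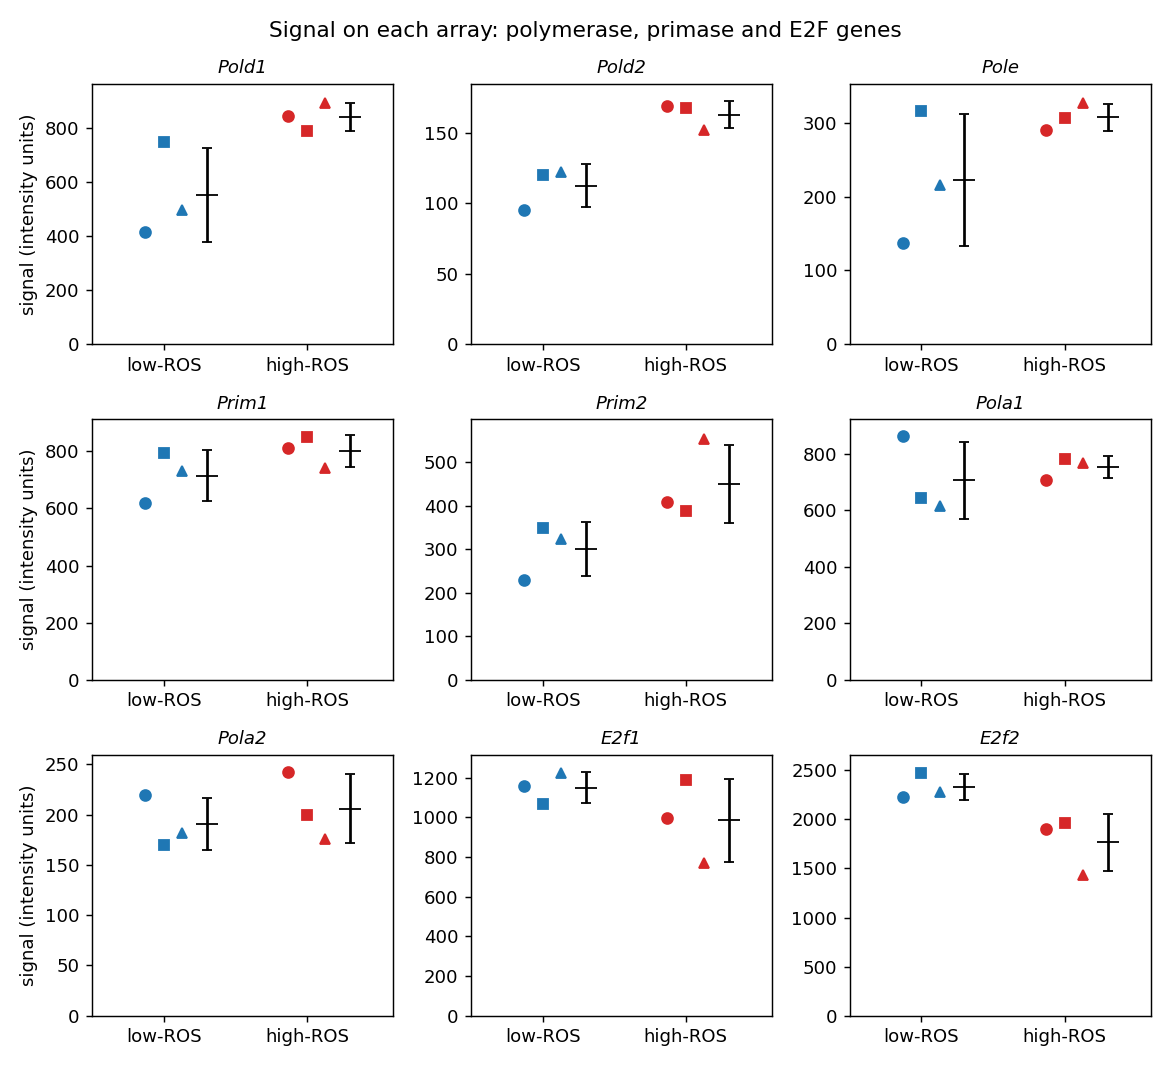
Deposited signal (y axis, intensity units, from 0) of the 7 polymerase and primase genes and of E2f1 and E2f2 on each array; circles, squares and triangles are replicates 1, 2 and 3, and the black bar is the mean with its SD (n = 3). Pold1, Pold2 and Prim2 have every high-ROS array above every low-ROS array, E2f2 has every high-ROS array below, and low-ROS replicate 1 is the lowest array for Pold1, Pold2, Pole, Prim1 and Prim2.

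The sliding clamp and its loader were mixed. Pcna, the ring that tethers polymerases to DNA, had 3990, 4384 and 4245 in low-ROS and 4018, 4272 and 3607 in high-ROS CMP (log2 fold change -0.09, SE 0.09, limma adjusted p = 0.839). Its 95% interval ran from -0.28 to 0.10. It was -0.02 without high-ROS replicate 3, and with the Gapdh covariate it turned to 0.05. Rfc4, one of the 5 loader subunits, had 347, 384 and 408 against 444, 448 and 504.5, with no overlap (0.28, SE 0.14, limma adjusted p = 0.646). The second probe set of Rfc4 had 0.02 (SE 0.21), and the mean over both was 0.15. The other loader genes overlapped, with -0.21 for Rfc3, -0.10 for Rfc2, 0.01 for Rfc1 and 0.05 for Rfc5.

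Genes that protect single strands and join the lagging strand differed little. Fen1, the nuclease that trims flaps between fragments, had 2756, 2506 and 2345 in low-ROS and 2728, 2847 and 3092 in high-ROS CMP (log2 fold change 0.19, SE 0.09, limma adjusted p = 0.657). One low-ROS array reached into the high-ROS range, and the value was 0.07 with the Gapdh covariate. Rpa1, Rpa2 and Rpa3, which coat single-stranded DNA, had 0.08, 0.05 and 0.07, and Lig1, the ligase that seals the fragments, had -0.04.

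Among the enzymes of deoxynucleotide supply, Rrm2, the S phase subunit of ribonucleotide reductase, had 3828, 3769 and 3819 in low-ROS and 4034, 3885 and 3771 in high-ROS CMP. The log2 fold change was 0.03 (SE 0.07, limma adjusted p = 0.946) with a 95% interval from -0.13 to 0.20. Its other probe sets had -0.23 (SE 0.16) and -0.13 (SE 0.11), so that the mean over its probe sets turned to -0.11. Rrm1, the partner subunit, had -0.06. Tyms, thymidylate synthase, had 0.22 (SE 0.25, limma adjusted p = 0.862) from signals between 55.5 and 113.9, the lowest mean of the 43.

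Probe sets of a gene often disagreed on so small a scale. Several probe sets were available for 33 genes, and for 14 of these they differed in sign. Over all 98 probe sets of the 43 genes the median log2 fold change was 0.05, with 0 past the adjusted threshold when each was tested alone, and with 6 higher and 1 lower at p under 0.05 before adjustment, where 3.72% and 3.59% of all 34945 probe sets were. High-ROS replicate 3 was the lowest array for 38 of the 98 and the highest for 19. For Mcm3, with 5 probe sets, values ran from -0.16 to 0.17, and for Orc4, with 4, from -0.10 to 0.54. Both probe sets of Pold1 and both of E2f2 kept the direction of the brighter one.

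**Figure D4:**
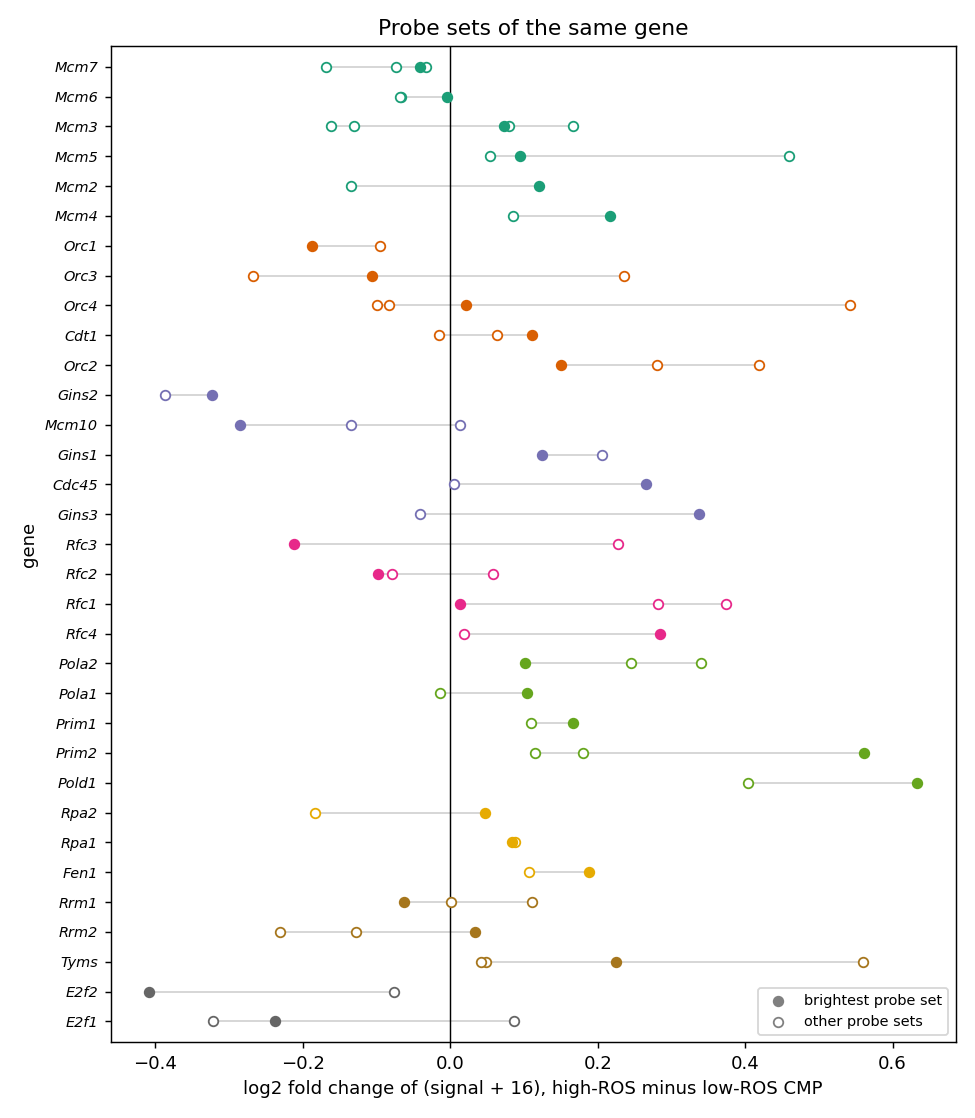
Log2 fold change (x axis, high-ROS minus low-ROS, log2 of signal plus 16) of every probe set of the 33 genes that have more than 1; filled marks are the brightest probe set, open marks the others, and colours mark the same roles as in the plot of all 43 genes. For 14 genes the marks lie on both sides of 0, and for the others they lie on one side.

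Of 77 further genes of the pathway, 74 were measured. None passed the adjusted threshold (0 higher and 0 lower, limma), 11 (14.9%, against 4.44% of all genes) had an unadjusted p under 0.05 with a higher mean and 2 (2.7%, against 3.37%) with a lower one. The groups did not overlap upward for 14 (18.9%, against 8.04%) and downward for 2 (2.7%, against 5.32%), and the mean was higher for 52 (70.3%, against 54.0%). Their median log2 fold change was 0.07. Among the 13 regulators of origin firing, Cdc7 and Dbf4, the kinase that fires origins and its activating subunit, had the smallest p. Cdc7 had 609, 727 and 637 in low-ROS and 813, 879 and 813 in high-ROS CMP (0.34, SE 0.12, limma adjusted p = 0.568). Dbf4 had 577, 682 and 690 against 815, 795 and 870 (0.34, SE 0.12, limma adjusted p = 0.568). Neither gene's groups overlapped.

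In the list of fork and chromatin factors (24 measured), 4 (16.7%) were higher and 0 lower with p under 0.05 before adjustment (limma). Of all genes, 4.44% were higher and 3.37% lower. Dna2, a nuclease and helicase of fragment processing, had 0.35 (SE 0.14), and Atad5, which unloads Pcna, had 0.30 (SE 0.12). In nucleotide supply (16 measured), 4 (25%) were higher and 0 lower. Atic, of purine synthesis, had 0.38 (SE 0.13), and Cad, of pyrimidine synthesis, had 0.54 (SE 0.22). The list of E2F, Rb and G1 to S regulators (21 measured) had 1 higher (4.76%) and 2 lower (9.52%). Tfdp2, a DP protein that pairs with E2F factors, had 1188, 1140 and 1156 in low-ROS and 898, 998 and 784 in high-ROS CMP (-0.38, SE 0.12, limma adjusted p = 0.551), without overlap and in the same direction as E2f2. Rbl1, the pocket protein p107, had 0.37 (SE 0.14). The E2F genes of this list went both ways, from -0.35 for E2f5 (SE 0.22) to 0.37 for E2f7 (SE 0.18). E2f7 and E2f8 were higher in high-ROS CMP without overlap.

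Markers of the gate and of other marrow cells were read beside these values. No marker of any list below passed the adjusted threshold (limma, 0 higher and 0 lower). Of 8 markers of the progenitor gate, 4 means were higher and 4 lower. Kit and Gata2 did not overlap and were lower in high-ROS CMP (25%, against 5.32% of all genes). Their log2 fold changes were -0.22 (SE 0.14) for Kit and -0.72 (SE 0.16) for Gata2. Kit, Cd34, Fcgr3 and Mpo had signals well above the array medians in both groups. Neutrophil granule genes were bright in both groups, with 7 of 7 measured means lower in high-ROS CMP. Their summed signal was 50121 to 54618 in low-ROS and 49829 to 52193 in high-ROS CMP, with overlap. Ltf, Ngp and Mmp8 did not overlap downward, 3 of the 7 (42.9%, against 5.32% of all genes). Most erythroid markers, such as Slc4a1, the anion exchanger of red cells, were bright too, but Hba-a1 had signals of 1 to 8.43. Of 6 measured means 4 were lower, and those of Hba-a1 and Ermap were higher. The list summed to 13759 to 14117 in low-ROS and 10231 to 13028 in high-ROS CMP, without overlap. Slc4a1 (6066 to 6161 against 4350 to 5366) and Hba-a2 (3085 to 3366 against 1396 to 2932) were the erythroid markers that did not overlap. They were 33.3% of those measured, where 5.32% of all genes did not overlap downward. The lowest sum is on high-ROS replicate 3, the array where E2f2 and E2f1 were also lowest. Stem cell markers had 7 of 8 means lower, and 5 of the 8 (62.5%, against 3.37% of all genes) were lower at an unadjusted p under 0.05 (limma). They summed to 784 to 1065 in low-ROS and 378 to 659 in high-ROS CMP. Tek, Slamf1, Fgd5 and Hlf did not overlap downward, 4 of the 8 (50%, against 5.32% of all genes). Tek and Hlf were the brightest stem cell markers on the low-ROS arrays. Others were dim, as Fgd5 with signals of 1.11 to 31.0 and Hoxb5 with 5.46 to 10.9. Lymphoid and macrophage markers had 5 of 7 means higher each, with summed signals of 1519 to 1849 and 1488 to 1714 for the lymphoid and 2268 to 2719 and 2336 to 2838 for the macrophage list. The part of these cells in the replication gene values was not tested.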

How the data were processed

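The deposited values are 1 linear intensity per probe set on each of 6 arrays. RNA was amplified with the NuGEN Ovation system and labelled with biotin, per the labels' protocols. The sources used here do not give the authors' summarisation and scaling of these intensity values. Of 45101 probe sets, 34945 had 1 gene symbol in the platform annotation, 932 had several, 9160 none and 64 were controls, and only those with 1 symbol were used. The brightest probe set by mean log2 value stood for each of 18193 genes.

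A pseudocount of 16 was added before log2, which shrinks changes of dim genes. The groups were compared over all genes with limma 3.58.1 in R 4.3.3 (lmFit, eBayes with a mean-variance trend, 2-sided, Benjamini-Hochberg, threshold 0.05), with 4 residual and 11.1 total degrees of freedom. With 3 arrays a group, exact permutation p-values go no lower than 0.1. The steps were tested on simulated data. The number of arrays limits the precision.

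Values are given in full for the 16 genes of smallest p and for 9 fixed genes (22 in all), and for further genes by range or fold change; 2 genes of each pathway list are named by p. The members, lists and rules were chosen with earlier results of these data known. Alternatives covered the trend, scaling, pseudocount, brightness, probe set choice (in part added later), replicate number and single arrays. Figures used Python 3.11.15 and matplotlib 3.10.9.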

Additional observations from a re-analysis of the deposited data

How the results depend on the processing

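Among the 43 genes 0 were called higher or lower in any of the settings tried, with a smallest adjusted p of 0.332 (Pold1 without low-ROS replicate 2, limma), and 0 of the 74 other pathway genes were called. The sign held in 18 alternatives for 14 of the 43 genes and changed at least once for 29. Some of the 18 could not change a sign, because they leave a gene's fold change as it is. These were the fits without a trend, of bright genes only, of each probe set alone and with the replicate block. For the 10 genes with 1 probe set, averaging or choosing probe sets could not change it either. The median over the 43 stayed above 0, from 0.03 to 0.13, moving by less than the spread between arrays. For the polymerase and primase genes it was 0.29 with probe sets averaged per gene, 0.21 with each probe set tested alone, 0.11 with the probe set brightest on low-ROS arrays (added after the data were seen), and 0.25 to 0.53 when single arrays were left out. Prim2 and Prim1 change probe set under the low-ROS choice. Otherwise the cause was not tested. Without single arrays, 7 to 13 of the 43 (at most 30.2%) did not overlap upward, where 11.8% to 15.1% of all genes did not. Downward it was 1 to 5 (at most 11.6%), where 8.57% to 11.6% of all genes did not, and 2 with the mean of probe sets. At an unadjusted p under 0.05 (limma), 2 to 4 of the 43 were higher and 1 to 4 lower without single arrays. Of all genes, 3.02% to 5.22% and 2.51% to 5.14% were. With the Gapdh ratio as a covariate, also added later, 5 of the 43 (11.6%) were higher, against 3.28% of all genes.

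Over all genes, 3 were called higher and 7 lower. The counts were 0 and 0 without a trend, 5 and 12 for genes above the median signal, 0 and 4 with a pseudocount of 64, 0 and 3 with the Gapdh covariate, and 0 to 0 higher and 1 to 6 lower without single arrays. With each probe set tested alone 0 were higher, and at an adjusted p under 0.1, 7 were. Same-numbered samples correlated at 0.12, 0.10 and 0.00 in their deviations from the group means. Low-ROS replicates 1 and 2 each correlated best with the high-ROS sample of the same number. Low-ROS replicate 3 correlated best with high-ROS replicate 2, at 0.06. Whether the numbers pair the samples cannot be told from these values. With the replicate number as a block, 0 genes were called higher and 4 lower over all. Of the 43, 5 (11.6%) were then higher at an unadjusted p under 0.05 (limma), against 4.67% of all genes in that fit.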
